A study of Mus musculus with 22 samples.

Results

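The genes described here make, or respond to, prostaglandins and leukotrienes, lipid messengers that are derived from arachidonic acid. They were chosen by name as 10 genes: the cyclooxygenases Ptgs1 and Ptgs2, the prostaglandin E synthase Ptges, the prostanoid receptors Ptger2, Ptger4 and Ptgir, the lipoxygenases Alox5 and Alox15, and the leukotriene proteins Alox5ap and Ltc4s. Of the 10 genes, 9 had a probe set that names them alone, 13 of 45037 probe sets in all. Ptgs1 had none in the annotation used here and was not analysed. In the annotation the 9 genes had 1 to 3 probe sets each, and the brightest one stands for the gene wherever genes are counted.

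The 22 arrays held RNA of CD8α- DCs, sorted as CD11c+CD8α- cells from the pancreas of female mice at 5 weeks of age, before NOD mice become diabetic. NOD is the strain that develops autoimmune diabetes, and C57BL/6 is the non-diabetic strain it was compared with. The groups were NOD at steady state (n = 3), C57BL/6 at steady state (n = 4), NOD (n = 4) and C57BL/6 (n = 4) DCs cultured for 18 h with PBS, and NOD (n = 4) and C57BL/6 (n = 3) DCs cultured for 18 h with LPS, a bacterial cell wall component. The labels name no transgene or deletion in either strain. Steady state arrays were made from pools of 10 pancreases, and the series text gives pools of 10 for the cultured arrays as well. The series text describes the culture as another experiment, whereas the study's methods describe culturing one part of the sorted cells, so a difference between cultured and steady state DCs cannot be told apart from a difference between experiments. In bulk RNA of a sort, fewer cells of a type and less RNA per cell cannot be told apart either.

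All values are log2 expression after RMA normalisation, and a log2 difference of 1 is a 2-fold difference. Array medians lay between 7.63 and 7.68, and the lower quartiles between 6.03 and 6.36. At steady state all 10 DC markers averaged above these medians in both strains, for example Itgax (CD11c) at 10.89 in NOD and 11.32 in C57BL/6 DCs, and H2-Ab1 at 14.25 in NOD and 14.37 in C57BL/6 DCs. After culture the DC lectin Cd209a averaged 6.76 in NOD and 6.66 in C57BL/6 DCs with PBS, below the medians. Its steady state means were 11.24 in NOD and 11.53 in C57BL/6 DCs. Ccr7 went the other way, from 8.87 at steady state to 13.09 with PBS in NOD, and from 9.36 to 13.48 in C57BL/6 DCs. The DC markers did not move as 1 in PBS culture. Of the 10, 1 was called higher and 5 lower in NOD, and 4 higher and 5 lower in C57BL/6, with medians of -0.2 and -0.28. Macrophage markers were also read in the sort. Over 11 of them the mean level at steady state was 13.08 to 13.23 in NOD and 13.19 to 13.32 in C57BL/6 DCs, and Csf1r averaged 14.74 in NOD and 14.81 in C57BL/6 DCs. Transcripts of the acinar pancreas were read as well, with mean levels over 3 genes of 12.62 to 13.73 in NOD and 13.05 to 13.59 in C57BL/6 DCs at steady state.

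Both branches of the pathway start when a phospholipase frees arachidonic acid from membranes. In the prostanoid branch, cyclooxygenases (Ptgs1, mostly constitutive, and Ptgs2, inducible) form prostaglandin H2, and terminal synthases such as Ptges turn it into prostaglandin E2 and its relatives, which act on receptors such as EP2 (Ptger2), EP4 (Ptger4) and the prostacyclin receptor (Ptgir). In the leukotriene branch, 5-lipoxygenase (Alox5), helped by the membrane protein FLAP (Alox5ap), forms leukotriene A4, which leukotriene C4 synthase (Ltc4s) joins to glutathione. Alox15 oxygenates arachidonic and linoleic acid at other positions and is a known gene of resident peritoneal macrophages and eosinophils. Prostaglandin E2 is known in DCs for its effects on maturation, migration and cytokine production, and Ptgs2 and Ptges are known as genes that are induced together in activated macrophages.

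RefSeq promoters (250 bases before to 50 after the annotated start, GRCm38.p6) were found for 8 of the 10 genes. The promoters of Ptgs2 and Ptges are shown because these genes rose together in culture, and that of Alox5 because it fell there. Each is written 5′ to 3′ in the direction of the gene, with every match to a searched motif in capitals.
Ptgs2: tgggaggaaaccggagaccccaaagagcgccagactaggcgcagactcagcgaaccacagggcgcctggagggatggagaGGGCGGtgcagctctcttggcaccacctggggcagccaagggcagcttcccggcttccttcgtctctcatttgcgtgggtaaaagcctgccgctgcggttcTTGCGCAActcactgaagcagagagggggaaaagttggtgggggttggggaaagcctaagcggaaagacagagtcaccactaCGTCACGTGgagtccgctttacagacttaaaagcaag
Ptges: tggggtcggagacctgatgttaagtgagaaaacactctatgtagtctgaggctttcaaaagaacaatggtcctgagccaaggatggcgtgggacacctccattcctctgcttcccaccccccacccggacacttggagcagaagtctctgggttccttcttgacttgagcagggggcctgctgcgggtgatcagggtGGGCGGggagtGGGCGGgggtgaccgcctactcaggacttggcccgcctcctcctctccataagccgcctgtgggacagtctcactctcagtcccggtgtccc
Alox5: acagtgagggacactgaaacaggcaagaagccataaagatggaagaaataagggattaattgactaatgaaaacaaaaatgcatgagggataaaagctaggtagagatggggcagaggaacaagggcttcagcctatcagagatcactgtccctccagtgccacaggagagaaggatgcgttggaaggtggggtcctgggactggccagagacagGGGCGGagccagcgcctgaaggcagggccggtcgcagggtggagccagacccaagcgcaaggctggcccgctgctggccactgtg
The Ptgs2 sequence lies at chr1:150099781-150100080 on the plus strand, the Ptges sequence at chr2:30903248-30903547 on the minus strand and the Alox5 sequence at chr6:116461129-116461428 on the minus strand. The Ptges sequence lies within the RefSeq span of the gene, chr2:30889471-30931020. Both strands were searched. The motifs were the kappaB site, the cyclic AMP element TGACGTCA and its part TGACG, the C/EBP letters TTGCNNAA, the AP-1 letters TGANTCA, the TATA letters TATAAA, the GC box GGGCGG, the E-box CACGTG and the PU.1 letters GAGGAAGT. In the Ptgs2 promoter the capitals mark a GC box whose first base is at -170 from the annotated start, a C/EBP match at -69, and, after the start, a minus strand TGACG match at 14 that overlaps an E-box at 17. In the Ptges promoter they mark GC boxes at -53 and -42, and in the Alox5 promoter a GC box at -35. A GC box was found in 5 of the 8 promoters and in 35.7% of 32851 mouse promoters of the same length, C/EBP letters in 2 and in 10.8%, TGACG in 1 and in 20.8%, the E-box in 1 and in 7.15%, and the PU.1 letters in 1 (Ptgs1) and in 3.2%. None of the 8 held the kappaB site (8.46% of all promoters), the whole cyclic AMP element (1.79%), the AP-1 letters (7.81%) or TATAAA (13.6%).

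**Figure D1:**
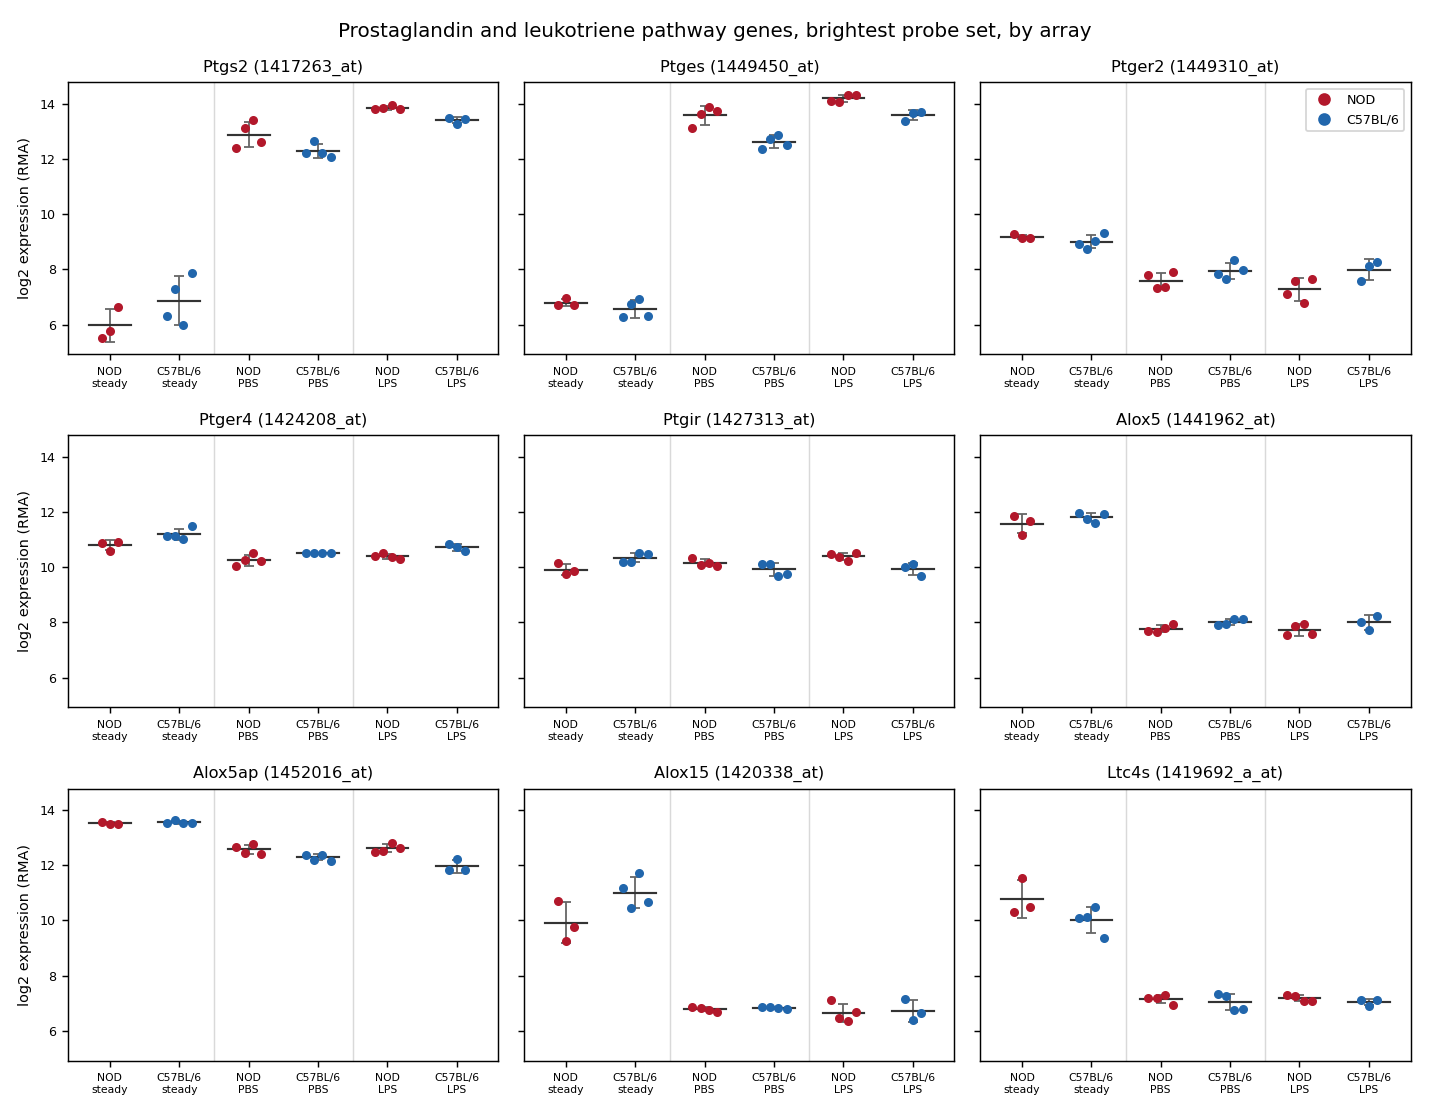
Log2 expression (RMA, vertical axis) of the 9 genes by their brightest probe set, with 1 point per array, NOD in red, C57BL/6 in blue, horizontal lines at group means and bars of 1 SD. Ptgs2 and Ptges had group means of 5.97 to 6.87 and 6.57 to 6.79 at steady state and of 12.29 or more in every cultured group, while Alox5, Alox15 and Ltc4s were high at steady state only.

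The first comparison asked what 18 h of culture with PBS alone did. The prostanoid synthesis genes Ptgs2 and Ptges rose in both strains by more than 5 on the log2 scale, the leukotriene and lipoxygenase genes Alox5, Alox5ap, Alox15 and Ltc4s fell in both, and so did the receptors Ptger2 and Ptger4. In NOD 2 of 9 genes rose and 6 fell, 12 of 13 probe sets in all, where 67.1% of all probe sets were called, and in C57BL/6 2 rose and 7 fell, 13 of 13 probe sets, where 72.7% of all were called. With calls this frequent the counts say little about these genes, and the sizes carry the description. The median log2 difference of the 9 genes was -0.96 in NOD and -1.05 in C57BL/6, against 0.156 and 0.168 over all 18193 genes. The ranges of the cultured and the steady state arrays did not overlap for 8 of 9 genes in NOD and 9 of 9 in C57BL/6. How often ranges stayed apart over all probe sets was not counted, so these counts do not set the 9 genes apart.

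Ptgs2 (1417263_at) read 12.38, 13.13, 13.39 and 12.6 in NOD DCs with PBS, against 5.5, 5.77 and 6.65 at steady state. In C57BL/6 DCs it read 12.23, 12.66, 12.22 and 12.06 with PBS, against 6.32, 7.3, 5.97 and 7.86 at steady state. At steady state 6 of the 7 arrays were below the array medians, and every cultured array lay far above the highest steady state array. The log2 difference was 6.91 ± 0.284 (SE) in NOD, with adjusted p = 3.96e-09, and 5.43 ± 0.337 in C57BL/6, with adjusted p = 7.05e-08. The steady state mean of 5.97 in NOD lay below the lower quartiles of those arrays, where a level above background cannot be told, so no fold is given and the size of the rise is uncertain. Ptgs2 ranked 7 among the rises of 18193 genes in NOD and 13 in C57BL/6. The other probe set, 1417262_at, differed by 6.26 in NOD and 4.43 in C57BL/6.

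Ptges (1449450_at) read 13.1, 13.62, 13.88 and 13.72 in NOD DCs with PBS, against 6.72, 6.95 and 6.71 at steady state. The C57BL/6 values were 12.37, 12.73, 12.87 and 12.5 with PBS, against 6.28, 6.76, 6.94 and 6.3 at steady state. All 7 steady state arrays were below the array medians and all 8 cultured arrays far above. Ptges differed by 6.79 ± 0.174 in NOD, with adjusted p = 1.42e-10, and 6.05 ± 0.17 in C57BL/6, with adjusted p = 1.58e-10, and ranked 8 among all rises in both strains. The other probe sets gave smaller differences, 4.2 (1449449_at) and 5.55 (1439747_at) in NOD and 2.82 and 3.45 in C57BL/6. With 1439747_at all 3 NOD arrays and 2 of the 4 C57BL/6 arrays at steady state were at or below the lower quartiles of their arrays, and the size of its rise is uncertain as well.

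Alox5, the first enzyme of leukotriene synthesis, read 7.7, 7.64, 7.81 and 7.96 in NOD DCs with PBS, against 11.87, 11.18 and 11.68 at steady state. In C57BL/6 DCs it read 7.91, 7.95, 8.12 and 8.13 with PBS, against 11.95, 11.76, 11.62 and 11.94 at steady state. Alox5 differed by -3.8 ± 0.165 in NOD (adjusted p = 5.8e-09), 13.9-fold lower, and -3.79 ± 0.112 in C57BL/6 (adjusted p = 2.41e-10), 13.8-fold lower. Cultured DCs were close to the array medians, and Alox5 ranked 51 among the falls of all genes in NOD and 58 in C57BL/6.

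Alox15 read 6.86, 6.82, 6.77 and 6.7 in NOD DCs with PBS, against 10.72, 9.26 and 9.78 at steady state. C57BL/6 DCs had 6.88, 6.85, 6.82 and 6.8 with PBS, against 11.19, 10.46, 11.71 and 10.66 at steady state. After culture all 8 arrays lay between 6.7 and 6.88, below the array medians, whereas the steady state arrays were high and scattered. Alox15 differed by -3.13 ± 0.261 in NOD (adjusted p = 1.2e-06) and -4.17 ± 0.221 in C57BL/6 (adjusted p = 1.88e-08).

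Ltc4s read 7.19, 7.19, 7.31 and 6.94 in NOD DCs with PBS, against 10.29, 11.55 and 10.48 at steady state. C57BL/6 DCs had 7.32, 7.28, 6.77 and 6.79 with PBS, against 10.08, 10.13, 10.48 and 9.37 at steady state. Like Alox15 it was below the array medians on every cultured array. Ltc4s differed by -3.62 ± 0.248 in NOD (adjusted p = 2.4e-07) and -2.97 ± 0.217 in C57BL/6 (adjusted p = 2.61e-07). Alox5ap, which presents arachidonic acid to Alox5, stayed above 12 on every PBS array and fell by 0.96 in NOD (12.57 with PBS, 13.53 at steady state, adjusted p = 5.45e-05) and by 1.27 in C57BL/6 (12.28 with PBS, 13.55 at steady state, adjusted p = 4.19e-07).

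Among the receptors, Ptger2 fell by 1.58 in NOD (7.59 with PBS, 9.17 at steady state, adjusted p = 5.3e-06) and by 1.05 in C57BL/6 (7.95 with PBS, 9.0 at steady state, adjusted p = 0.000132). Ptger4 fell by 0.55 in NOD (10.25 with PBS, 10.8 at steady state, adjusted p = 0.00586) and by 0.69 in C57BL/6 (10.51 with PBS, 11.19 at steady state, adjusted p = 0.000257). Ptgir fell by 0.42 in C57BL/6 (9.92 with PBS, 10.35 at steady state, adjusted p = 0.0165), while in NOD it was not called (10.16 with PBS, 9.91 at steady state, log2 difference 0.25, adjusted p = 0.133). Without NOD steady state replicate 1 the NOD difference was 0.36 and was called (adjusted p = 0.056).

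**Figure D2:**
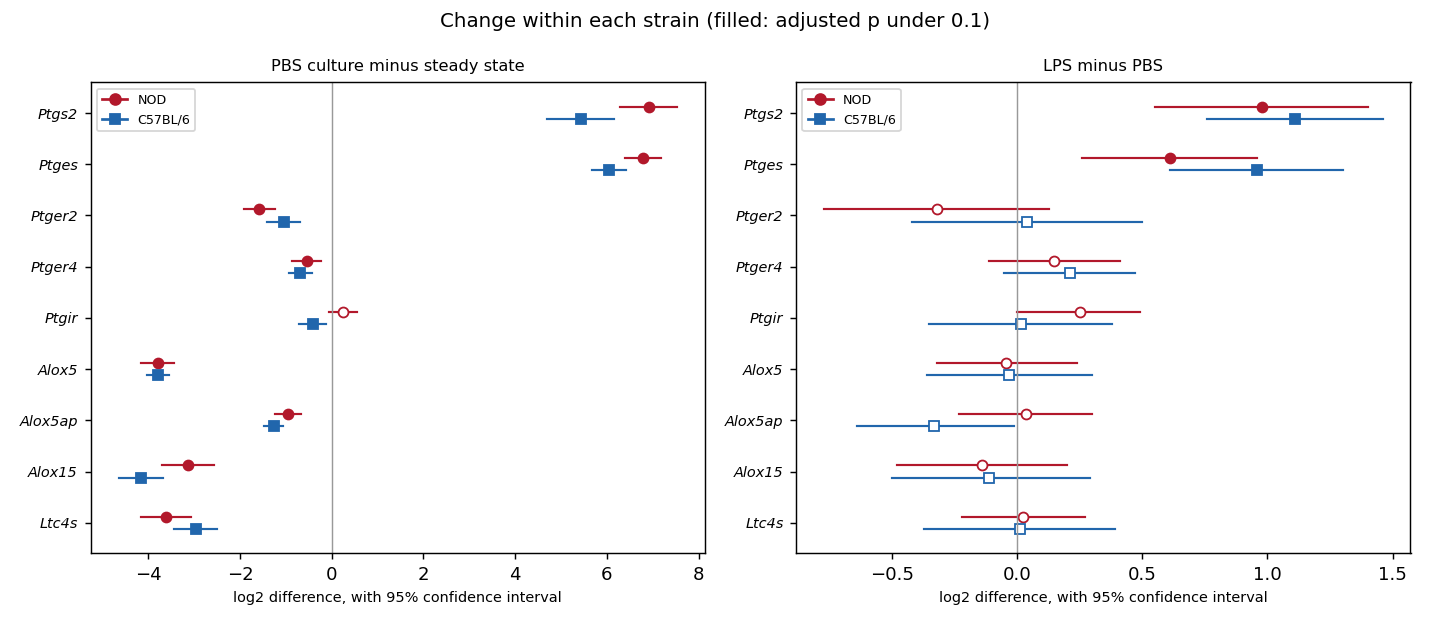
Log2 difference (horizontal axis, bars of the 95% confidence interval) of the 9 genes for PBS culture minus steady state (left) and LPS minus PBS (right), in NOD (red circles) and C57BL/6 (blue squares), filled where the adjusted p was under 0.1. Culture differences ran between -4.17 and 6.91, and with LPS only Ptgs2 and Ptges, with differences of 0.61 to 1.11, are filled.

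Other genes of the pathway moved both ways in culture. Of 45 measured, 19 rose and 17 fell in NOD and 18 rose and 17 fell in C57BL/6, with a median log2 difference of 0.01 in NOD and 0.06 in C57BL/6. Over all genes, 71.6% were called in NOD and 76.9% in C57BL/6, so these counts also say little. Lta4h, which makes leukotriene B4, fell by 2.7 in NOD (7.63 with PBS, 10.33 at steady state, adjusted p = 4.78e-07) and by 2.45 in C57BL/6 (8.13 with PBS, 10.58 at steady state, adjusted p = 2.3e-08). Hpgd, the enzyme that inactivates prostaglandins, fell by 2.96 in NOD (9.15 with PBS, 12.11 at steady state) and by 3.34 in C57BL/6 (9.58 with PBS, 12.92 at steady state). The epoxide hydrolase Ephx1 fell as well, with differences of -3.32 in NOD and -3.88 in C57BL/6. The secreted phospholipase Pla2g2d differed by -2.42 in NOD, and averaged 7.7 with PBS and 10.06 at steady state in C57BL/6. The lysosomal phospholipase Pla2g15 differed by -2.96 in C57BL/6, and averaged 9.29 with PBS and 11.69 at steady state in NOD. Fpr2, a receptor for formyl peptides and lipoxin A4, rose by 1.94 in NOD and 1.81 in C57BL/6, and the cysteinyl leukotriene receptor Cysltr2 rose by 1.18 in NOD and 1.5 in C57BL/6. Acsl4 rose by 1.16 in NOD, and Mgst2 and Pla2g7 by 1.3 and 1.11 in C57BL/6. In C57BL/6 Acsl4 averaged 10.49 with PBS and 10.07 at steady state. In NOD Mgst2 averaged 7.71 with PBS and 7.09 at steady state, and Pla2g7 averaged 12.74 with PBS and 12.56 at steady state. Pla2g5 was also called higher in NOD, but its means of 6.34 with PBS and 5.15 at steady state lay at or below the lower quartiles of the arrays, and no size is read from them. Of 6 genes of prostanoid transport and breakdown 5 fell in NOD and 4 in C57BL/6, and of 6 other leukotriene enzymes and transporters 4 fell in each strain.

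Markers of other cells moved with culture too, as did most genes (71.6% of all genes were called in NOD and 76.9% in C57BL/6). Of 11 macrophage markers 3 rose and 6 fell in NOD and 2 rose and 8 fell in C57BL/6, with medians of -1.01 and -1.08, and their mean level was 12.28 to 12.53 in NOD DCs with PBS and 12.21 to 12.41 in C57BL/6 DCs with PBS. Of 6 markers of peritoneal-type macrophages 4 fell in NOD and 6 in C57BL/6, with a mean level of 7.88 to 8.51 in NOD DCs with PBS, against 8.84 to 9.59 at steady state, and of 8.29 to 8.89 in C57BL/6 DCs with PBS, against 9.81 to 10.41 at steady state. Gata6, their defining factor, averaged 6.66 in NOD and 6.95 in C57BL/6 DCs at steady state, below the array medians. Mast cell and basophil markers rose for 9 of 11 in NOD and 8 of 11 in C57BL/6. Their mean level at steady state was low, 6.26 to 6.47 in NOD and 6.6 to 6.97 in C57BL/6, below the array medians. The lower quartiles of the arrays were also higher in culture (in NOD 6.28 to 6.35 with PBS, against 6.08 to 6.19 at steady state). No content of such cells is read from these rises. All 3 acinar genes fell in both strains. The part of these cells in the fall of Alox15, Alox5 and Ltc4s or the rise of Ptgs2 and Ptges was not tested.

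The second comparison asked what LPS added to culture. Ptgs2 and Ptges rose further in both strains and the other 7 genes were not called in either, so both called genes were enzymes of prostaglandin E2 synthesis. In NOD 5 of 13 probe sets were called, all higher, where 3.76% of all probe sets were called, and in C57BL/6 4 of 13, all higher, where 1.48% were. The called probe sets belong to 2 genes in each strain and are not independent. The median of the 9 genes was 0.0349 in NOD and 0.0181 in C57BL/6, against -0.00413 and 0.0248 over all genes.

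Ptgs2 read 13.8, 13.86, 13.94 and 13.81 in NOD DCs with LPS, against 12.38, 13.13, 13.39 and 12.6 with PBS. In C57BL/6 DCs it read 13.47, 13.28 and 13.46 with LPS, against 12.23, 12.66, 12.22 and 12.06 with PBS. In both strains every LPS array was above every PBS array, and the NOD arrays, spread widely with PBS, lay close together with LPS. The log2 difference was 0.98 ± 0.193 in NOD (adjusted p = 0.0238) and 1.11 ± 0.156 in C57BL/6 (adjusted p = 0.0252). With 1417262_at it was 0.75 in NOD (adjusted p = 0.0454) and 0.8 in C57BL/6, where it was not called (adjusted p = 0.127).

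Ptges read 14.09, 14.06, 14.3 and 14.31 in NOD DCs with LPS, against 13.1, 13.62, 13.88 and 13.72 with PBS. The C57BL/6 values were 13.38, 13.65 and 13.7 with LPS, against 12.37, 12.73, 12.87 and 12.5 with PBS. The groups did not overlap in either strain. The log2 difference was 0.61 ± 0.159 in NOD (adjusted p = 0.0824) and 0.96 ± 0.155 in C57BL/6 (adjusted p = 0.0395). The NOD call was lost when any array but NOD PBS replicate 3 was left out, with log2 differences of 0.45 to 0.65 and adjusted p of 0.106 to 0.2. The C57BL/6 call was lost without PBS replicate 1 or 4 or LPS replicate 3 or 4, with differences of 0.87 to 0.92 and adjusted p of 0.114 to 0.127. The dimmer probe sets gave larger differences, 0.95 (1449449_at, adjusted p = 0.00491) and 0.83 (1439747_at, adjusted p = 0.0184) in NOD and 1.11 (adjusted p = 0.0457) and 1.13 (adjusted p = 0.0198) in C57BL/6.

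Whether the strains differed in their response to LPS was tested as an interaction over the 15 cultured arrays. None of the 9 genes was called, where 0.0244% of all probe sets were, 11 in number, and 1759 probe sets had an unadjusted p under 0.05. For Ptgs2 the difference between the strains in the LPS response was -0.13, with a 95% confidence interval of -0.7 to 0.43. For Ptges it was -0.35, with an interval of -0.84 to 0.14. The dimmer probe sets gave smaller sizes, -0.0493 for Ptgs2 (1417262_at) and -0.17 (1449449_at) and -0.3 (1439747_at) for Ptges. Alox5ap had the smallest unadjusted p of the 9 (0.0635), with log2 differences of 0.0349 in NOD and -0.33 in C57BL/6 and an interaction of 0.36, with an interval of -0.02 to 0.74.

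Of the 45 other pathway genes, 3 rose and 3 fell with LPS in NOD and 2 rose and 2 fell in C57BL/6. Over all genes, 4.4% were called in NOD and 1.81% in C57BL/6. Abcc4, which exports prostaglandin E2, rose by 0.8 in NOD (8.12 with LPS, 7.32 with PBS, adjusted p = 0.016) and by 0.89 in C57BL/6 (8.82 with LPS, 7.93 with PBS, adjusted p = 0.0724). Fpr2 rose by 0.67 in NOD and 0.66 in C57BL/6. The cysteinyl leukotriene receptors fell, Cysltr1 by 0.9 in NOD and 0.89 in C57BL/6, and Cysltr2 by 0.53 in NOD and 0.73 in C57BL/6, while the leukotriene B4 receptor Ltb4r1 was not called (log2 differences of 0.0837 in NOD and -0.0678 in C57BL/6). Hpgd fell by 1.07 in NOD (8.09 with LPS, 9.15 with PBS, adjusted p = 0.00505) and averaged 8.77 with LPS and 9.58 with PBS in C57BL/6 (adjusted p = 0.241). Pla2g4a, the phospholipase that frees arachidonic acid, rose by 0.6 in NOD (11.55 with LPS, 10.94 with PBS, adjusted p = 0.0178) and averaged 11.04 with LPS and 10.87 with PBS in C57BL/6 (adjusted p = 0.67). The interaction was not called for any of the 45.

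**Figure D3:**
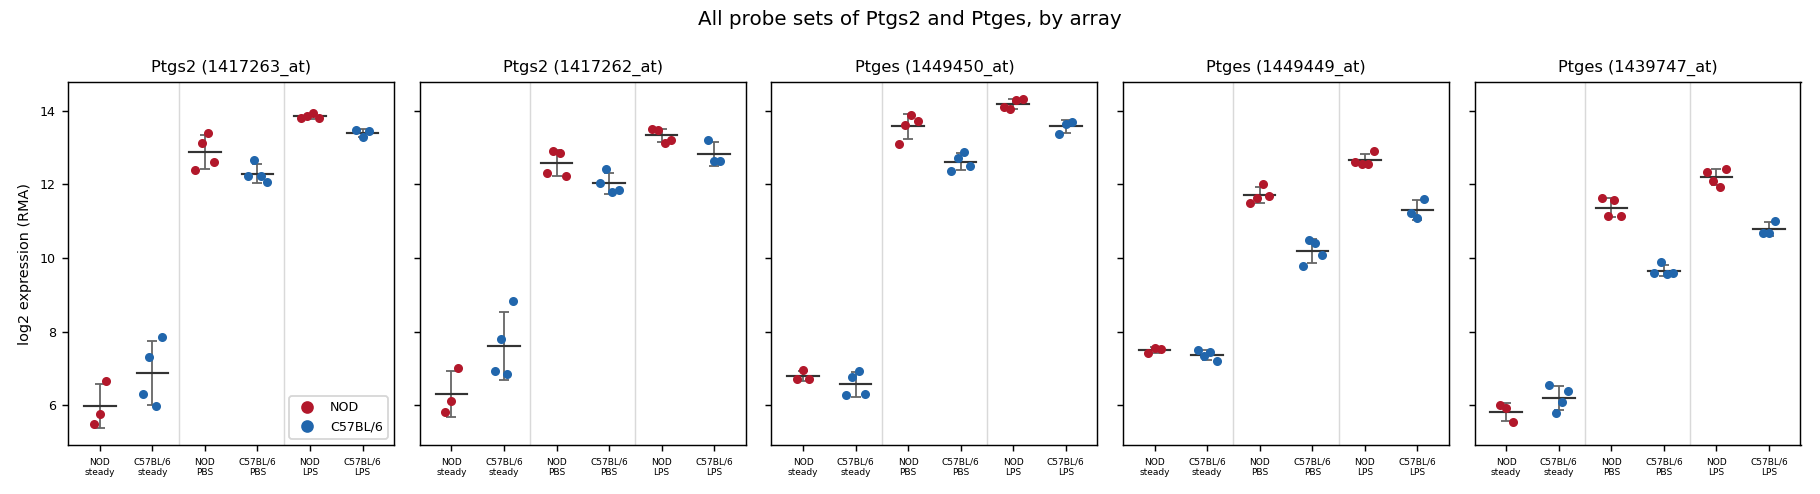
Log2 expression (RMA, vertical axis) of the 2 probe sets of Ptgs2 and the 3 of Ptges, with 1 point per array, NOD in red, C57BL/6 in blue, lines at group means and bars of 1 SD. All 3 Ptges probe sets separate NOD from C57BL/6 in both cultures, and none of them does so at steady state.

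The third comparison asked how the strains differed under each condition. In culture Ptges was higher in NOD by all 3 of its probe sets, and with LPS Ptgs2, Ptgir and Alox5ap were higher as well, while at steady state Alox15, Ptger4 and Ptgir were lower in NOD. Of 9 genes, 0 were called higher and 3 lower at steady state (5 of 13 probe sets, where 15.0% of all were called), 1 higher and 0 lower with PBS (3 of 13 probe sets, all of Ptges, where 9.87% were called), and 4 higher and 0 lower with LPS (6 of 13 probe sets, where 9.91% were called). The median log2 difference of the 9 genes was -0.24 at steady state, 0.12 with PBS and 0.13 with LPS, against 0.0297, 0.0423 and 0.0127 over all genes.

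At steady state Alox15 read 10.72, 9.26 and 9.78 in NOD, against 11.19, 10.46, 11.71 and 10.66 in C57BL/6 DCs. NOD replicate 1 lay within the C57BL/6 range and the other 2 below it. The log2 difference was -1.09 ± 0.348 (adjusted p = 0.0789). The call was lost without C57BL/6 replicate 1 or 5 or NOD replicate 4 or 6, with differences of -1.03 to -0.76 and adjusted p of 0.159 to 0.277, and with an intensity trend and robust spread (adjusted p = 0.111).

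Ptger4 read 10.89, 10.6 and 10.91 in NOD, against 11.14, 11.13, 11.02 and 11.49 in C57BL/6 DCs at steady state. Ptgir read 10.14, 9.74 and 9.85 in NOD, against 10.19, 10.2, 10.52 and 10.47 in C57BL/6 DCs. The strains did not overlap in either receptor, although the highest NOD array came close to the lowest C57BL/6 array in both. The log2 difference was -0.4 ± 0.131 for Ptger4 (adjusted p = 0.0881), -0.41 by its other probe set (adjusted p = 0.0806), and -0.44 ± 0.13 for Ptgir (adjusted p = 0.0599). The Ptger4 call was lost without C57BL/6 replicate 1, 4 or 6 or NOD replicate 4 or 6, with adjusted p of 0.127 to 0.274, and the Ptgir call without C57BL/6 replicate 5 or 6 or NOD replicate 4 or 6, with adjusted p of 0.131 to 0.194.

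Ptgs2 averaged 5.97 ± 0.6 in NOD and 6.87 ± 0.871 in C57BL/6 DCs at steady state (SD). It was not called by the brightest probe set (log2 difference -0.9, adjusted p = 0.217) and was called by 1417262_at (6.31 in NOD, 7.61 in C57BL/6, difference -1.29, adjusted p = 0.0984). Ltc4s averaged 10.77 ± 0.679 in NOD and 10.01 ± 0.465 in C57BL/6 DCs, a difference of 0.76 that was not called (adjusted p = 0.157). With the replicate number as a block, 6 of the 9 genes were called: Ptgs2 at -1.19 (adjusted p = 3.45e-05), Ltc4s at 0.92 (adjusted p = 0.00291) and Ptges at 0.35 (adjusted p = 0.0681) joined Alox15, Ptger4 and Ptgir. The share of all probe sets called in the blocked fit is not given here. The count of 6 therefore does not set these genes apart. No NOD array was numbered 5, so the blocked fit rests on the numbers 1, 4 and 6 alone and has few degrees of freedom. The arrays numbered 1 correlated at only 0.109. Without C57BL/6 replicate 5 Ptgs2 was called at the same -1.19 (adjusted p = 0.0949), which comes from the same arrays and is no separate result. Without NOD replicate 1 Ltc4s was called at 1.0 (adjusted p = 0.0708). Alox5ap averaged 13.53 in NOD and 13.55 in C57BL/6 DCs, with an interval of the difference of -0.22 to 0.17.

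Markers of other cells differed between the strains at steady state in the same samples, where 15.2% of all genes were called. Of 6 markers of peritoneal-type macrophages 4 were lower in NOD, with a median of -0.92 and a mean level of 8.84 to 9.59 in NOD, against 9.81 to 10.41 in C57BL/6. Cd5l averaged 10.04 in NOD and 12.01 in C57BL/6, while Timd4 averaged 12.55 in NOD and 12.62 in C57BL/6. Of 7 NK and ILC markers 6 were lower in NOD (median -1.03, mean level 8.36 to 8.66 in NOD and 9.41 to 9.72 in C57BL/6), and of 10 DC markers 5 were lower (median -0.3). Among the 11 macrophage markers 1 was higher and 1 lower, with a median of 0.02. Of 5 eosinophil markers 2 were higher and 2 lower. Of 11 mast cell and basophil markers 3 were lower and none higher (mean level 6.26 to 6.47 in NOD and 6.6 to 6.97 in C57BL/6), with Cma1 at 7.45 in NOD and 8.64 in C57BL/6 and Mcpt4 at 5.89 in NOD and 7.41 in C57BL/6. Of 5 endothelial and stromal markers 2 were lower (mean level 8.25 to 8.57 in NOD and 8.43 to 8.99 in C57BL/6). Neutrophil markers were higher for 2 of 5 and T cell markers for 1 of 3. The part of these cells in the lower Alox15, Ptger4 and Ptgir of NOD DCs was not tested.

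With PBS, Ptges (values above) averaged 13.58 in NOD and 12.62 in C57BL/6 DCs without overlap, a log2 difference of 0.96 ± 0.176 (adjusted p = 0.00649). By 1449449_at it read 11.49, 11.64, 12 and 11.69 in NOD, against 9.79, 10.5, 10.41 and 10.07 in C57BL/6 DCs, a difference of 1.51 ± 0.17 (adjusted p = 0.000271). By 1439747_at it read 11.64, 11.15, 11.57 and 11.13 in NOD, against 9.58, 9.9, 9.57 and 9.58 in C57BL/6 DCs, a difference of 1.71 ± 0.148 (adjusted p = 3.6e-05). All probe sets gave the same direction with sizes between 1.95- and 3.28-fold. Ptgs2 averaged 12.88 in NOD and 12.29 in C57BL/6 and was not called (log2 difference 0.59, adjusted p = 0.153). With the replicate number as a block it was called (adjusted p = 0.0585), as was Alox5ap (12.57 in NOD, 12.28 in C57BL/6, log2 difference 0.29, adjusted p = 0.0926), so 3 genes were called in place of 1. The share of all probe sets called in the blocked fit is not given here. Without NOD PBS replicate 1 the Ptgs2 difference was 0.75 (adjusted p = 0.0614).

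With LPS, Ptges averaged 14.19 in NOD and 13.58 in C57BL/6 DCs, a difference of 0.61 ± 0.13 (adjusted p = 0.0198), and its other probe sets differed by 1.34 (adjusted p = 0.000703) and 1.41 (adjusted p = 0.000467). Ptgs2 averaged 13.85 in NOD and 13.4 in C57BL/6 without overlap, a difference of 0.45 ± 0.112 (adjusted p = 0.0396). Its other probe set overlapped between the strains and was not called (0.49, adjusted p = 0.129). The Ptgs2 call was lost without C57BL/6 LPS replicate 3 (0.39, adjusted p = 0.15) and in 1 fit of all 22 arrays (adjusted p = 0.499).

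Alox5ap read 12.48, 12.53, 12.81 and 12.61 in NOD, against 11.83, 12.23 and 11.81 in C57BL/6 DCs with LPS, a difference of 0.65 ± 0.143 (adjusted p = 0.023). Ptgir read 10.48, 10.37, 10.24 and 10.52 in NOD, against 10.01, 10.12 and 9.69 in C57BL/6 DCs with LPS, a difference of 0.46 ± 0.137 (adjusted p = 0.08). Every NOD array was above every C57BL/6 array for both genes. The Ptgir call was lost in the fit blocked by replicate (0.44, adjusted p = 0.174) and without C57BL/6 LPS replicate 2 or 4 or NOD LPS replicate 1, 2 or 4 (0.34 to 0.49, adjusted p of 0.133 to 0.234). Ptger2 averaged 7.27 in NOD and 7.99 in C57BL/6, a difference of -0.71 that was not called (adjusted p = 0.117). It was called without C57BL/6 LPS replicate 2 or NOD LPS replicate 4, with adjusted p of 0.0683 and 0.0895, and at -0.71 in the fit of 22 arrays (adjusted p = 0.0331), with the intensity trend (adjusted p = 0.0968) and with the mean over probe sets (adjusted p = 0.0884). Ptger4, with a difference of -0.32 (adjusted p = 0.161), was called lower without the dimmer 50% of probe sets (adjusted p = 0.0956). Alox15 and Ltc4s, below the array medians on all cultured arrays, showed differences of at most 0.13 in size with LPS.

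**Figure D4:**
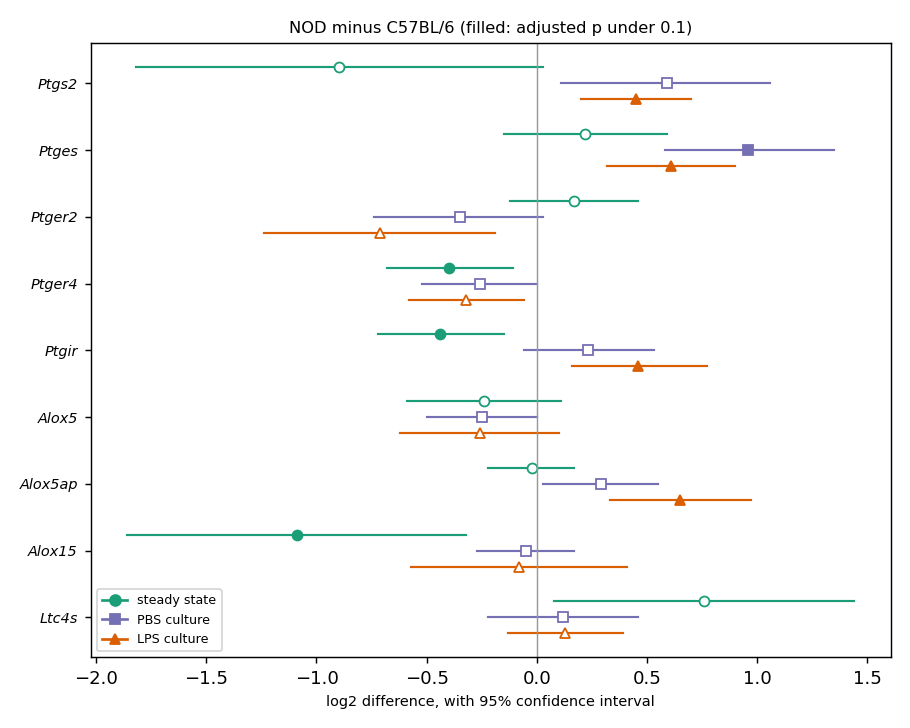
Log2 difference NOD minus C57BL/6 (horizontal axis, bars of the 95% confidence interval) of the 9 genes at steady state (green circles), with PBS (purple squares) and with LPS (orange triangles), filled where the adjusted p was under 0.1. Filled points lie left of 0 at steady state, between -1.09 and -0.4, and right of 0 in culture, between 0.45 and 0.96.

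In culture the marker lists differed between the strains as well, where 10.7% of all genes were called with PBS and 10.6% with LPS. With LPS 5 of 10 DC markers were lower in NOD (median -0.39, mean level 10.56 to 10.69 in NOD and 10.93 to 11.07 in C57BL/6), 2 of 11 macrophage markers were higher and 3 lower (median 0.06), and 2 of 6 markers of peritoneal-type macrophages were lower. With PBS 4 of 10 DC markers were lower and 1 was higher. Of 7 NK and ILC markers 3 were lower with PBS (median -0.47) and 3 with LPS (median -0.81, mean level 8.61 to 9.55 in NOD and 9.74 to 10.31 in C57BL/6). Of 4 B cell markers 2 were lower with PBS (median -1.04) and 1 with LPS (median -1.2). Of 11 mast cell and basophil markers 1 was higher and 1 lower with PBS, and 1 higher and 3 lower with LPS, where Kit averaged 7.03 in NOD and 8.43 in C57BL/6. Of 5 eosinophil markers 1 was lower with PBS and 2 with LPS. Of 5 neutrophil markers 2 were lower with PBS, and 1 was higher and 2 lower with LPS, where S100a9 averaged 8.37 in NOD and 12.59 in C57BL/6 and S100a8 averaged 14.26 in NOD and 13.38 in C57BL/6. Cd14, the LPS co-receptor, averaged 14.02 in NOD and 12.36 in C57BL/6 DCs with PBS, and 14.32 in NOD and 13.29 in C57BL/6 DCs with LPS. It belongs to the 11 macrophage genes counted above. With PBS the strain calls on that list were split, 3 down and 2 up in NOD (median 0.08). C1qa, from the same list, went the opposite way to Cd14. It averaged 11.55 in NOD and 12.21 in C57BL/6 DCs with PBS, and 10.67 in NOD and 11.34 in C57BL/6 DCs with LPS. The part of these cells in the higher Ptges, Ptgs2, Alox5ap and Ptgir of NOD DCs was not tested.

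Whether the strains differed in the change from steady state to PBS culture was tested as an interaction over 15 arrays, and 1 of 9 genes was called, Ptgir (4 of 13 probe sets, where 6.80% of all were called). Ptgir changed by 0.25 in NOD and -0.42 in C57BL/6, an interaction of 0.67 ± 0.193 (adjusted p = 0.0596). The call was lost without C57BL/6 steady state replicate 5 or 6, NOD steady state replicate 4 or 6, C57BL/6 PBS replicate 3 or NOD PBS replicate 1, with interactions of 0.59 to 0.64 and adjusted p of 0.105 to 0.178. For Ptges the interaction was 0.74 by the brightest probe set (adjusted p = 0.134), 1.38 by 1449449_at (adjusted p = 0.000778) and 2.1 by 1439747_at (adjusted p = 4.56e-05). For Ptgs2 it was 1.48 (adjusted p = 0.121) and 1.84 by 1417262_at (adjusted p = 0.0516). Blocking by replicate number added both genes, Ptges at 0.62 (adjusted p = 0.0395) and Ptgs2 at 1.78 (adjusted p = 0.00222), so that 3 of 9 were called. The share of all probe sets called in that fit is not given here. The low steady state values of Ptgs2 and of 1439747_at enter these interactions, and their sizes are uncertain for that reason. Without NOD PBS replicate 1 the brightest probe sets of both were called, Ptges at 0.9 (adjusted p = 0.0399) and Ptgs2 at 1.65 (adjusted p = 0.0967), and Ptgs2 was also called without C57BL/6 steady state replicate 1 or 5 or NOD steady state replicate 6, with interactions of up to 1.82 and adjusted p down to 0.0439. Alox15, with an interaction of 1.04 (adjusted p = 0.152), was called without C57BL/6 steady state replicate 4 or NOD steady state replicate 1, at 1.22 (adjusted p = 0.0838) and 1.44 (adjusted p = 0.0154). For the fall of Alox5 the interaction was -0.00868 with an interval of -0.43 to 0.41.

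Of the 45 other pathway genes, 5 were higher and 4 lower in NOD at steady state, 4 higher and 4 lower with PBS, and 6 higher and 4 lower with LPS. Over all genes, 15.2% were called at steady state, 10.7% with PBS and 10.6% with LPS. At steady state Hpgd was lower in NOD (12.11 in NOD, 12.92 in C57BL/6, log2 difference -0.81, adjusted p = 0.000415), and Pla2g7, the platelet-activating factor hydrolase, was higher (12.56 in NOD, 11.89 in C57BL/6, adjusted p = 0.000832). Ggt5, which trims leukotriene C4, was higher by 0.54, and Mgst3 and Alox12 by 0.5 and 0.37, while Cysltr2 and Ephx1 differed by -0.42 and -0.41. The receptor Ptger3 was called lower (adjusted p = 0.0955). Its means of 5.8 in NOD and 6.16 in C57BL/6 lay below or near the lower quartiles of the arrays, and no size is read from them. Hpgds, which makes prostaglandin D2 from the same precursor as Ptges uses, averaged 11.02 in NOD and 10.08 in C57BL/6 DCs with PBS (difference 0.94, adjusted p = 0.0148) and 11.03 in NOD and 9.71 in C57BL/6 DCs with LPS (difference 1.33, adjusted p = 0.00192), with 11.95 in NOD and 11.92 in C57BL/6 DCs at steady state. Its interaction of strain and culture was 0.91 (adjusted p = 0.0459). Lta4h was lower in NOD in culture, by -0.5 with PBS (adjusted p = 0.0931) and -0.62 with LPS (adjusted p = 0.0826), and Abcc4 by -0.6 and -0.69. Pla2g15 and Acsl4 were higher in NOD in both cultures, Pla2g15 by 0.63 with PBS and 0.89 with LPS and Acsl4 by 0.49 with PBS and 0.6 with LPS. Pla2g5, another secreted phospholipase, was called higher with LPS (adjusted p = 0.0607), with means at or below the lower quartiles of the arrays (6.35 in NOD, 5.71 in C57BL/6), so that no size is read from them. The leukotriene receptor Cysltr2 differed by -0.75 with PBS (7.78 in NOD, 8.53 in C57BL/6, adjusted p = 0.00205) and by -0.55 with LPS (7.25 in NOD, 7.8 in C57BL/6, adjusted p = 0.079).

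Over all 6 groups Ptgs2 ran from a mean of 13.85 in NOD DCs with LPS, through 13.4 (C57BL/6, LPS), 12.88 (NOD, PBS), 12.29 (C57BL/6, PBS) and 6.87 (C57BL/6, steady state) to 5.97 (NOD, steady state). Of the neighbours in that order, only the LPS groups, and C57BL/6 with PBS and C57BL/6 at steady state, had ranges that did not overlap. Ptges ran from 14.19 (NOD, LPS), through 13.58 in NOD with PBS and in C57BL/6 with LPS, whose ranges overlapped, and 12.62 (C57BL/6, PBS) to 6.79 (NOD, steady state) and 6.57 (C57BL/6, steady state), which also overlapped. The other neighbours of Ptges did not overlap. In Alox5, Alox15 and Ltc4s the steady state groups came first and overlapped each other, and the 4 cultured groups followed with overlapping neighbours. The group means of Ptgir spanned 0.49 and those of Ptger4 0.94, against 7.88 for Ptgs2.

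The genes whose profile over the 22 arrays lay closest to Ptgs2, by the root mean square difference of centred log2 values, were the C-type lectin Clec4e (0.584), Ptges (0.594) and the chemokine Cxcl3 (0.629). Closest to Ptges were Mir155hg, the host gene of miR-155 (0.427), Acod1, which makes itaconate (0.576), and the lipase Lipg (0.591). Closest to Alox15 were BC035044 (0.354), the ribonuclease Ang (0.385) and Ephx1 (0.404). The points share the jump between steady state and culture, and the likeness is a description only.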

How the data were processed

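The study hybridised RNA of CD8α- DCs from 22 samples to Affymetrix Mouse Genome 430 2.0 arrays. The deposited log2 values, 1 per probe set and array, come from RMA, run by the authors in BRB-ArrayTools (version not given in the sources used here). Scanner intensities were not used here, and precision is limited by the number of arrays. The table lists 45101 probe sets, and 45037 remained after removal of 64 with AFFX names. Of these, 34945 name 1 gene, 932 several and 9160 are not named here, and 34741 were matched to RefSeq through the gene ID. Genes, lists and tests were chosen with earlier results of these data known.

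Comparisons were fitted unpaired on their own groups with limma 3.58.1 (lmFit, eBayes) in R 4.3.3, interactions on the 4 groups concerned. Calls required an adjusted p (Benjamini-Hochberg, across the 45037 probe sets) under 0.1. The code was tested on simulated data. Named are all members with their probe sets, at most 4 called rises and 4 called falls per comparison among 45 other pathway genes, and the 3 genes most like each of the 3 members with the widest range of group means. Markers of other cell types are given as counts and medians, with a few genes that were picked after their values were seen (Itgax, H2-Ab1, Csf1r, Cd209a, Ccr7, Gata6, Cd5l, Timd4, Cd14, C1qa, Cma1, Mcpt4, Kit, S100a8, S100a9). Labels do not say that cultured replicates came from separate animals, so p-values measure the spread between these samples. Residuals of same-numbered arrays correlated at 0.109 to 0.487 in the 5 comparisons within 1 condition or culture, and fits with the replicate number as a block treated them as pairs. Cultured and steady state arrays shared only 2 numbers in each strain, correlated at -0.0328 to 0.277, and were not taken as pairs, so the blocked fit of culture within a strain is an alternative only.

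Other settings were a threshold of 0.05, removal of the dimmer 50% of probe sets, 1 model of all 22 arrays, median centring, an intensity trend with robust spread, averaging a gene's probe sets, the replicate block, and each array left out.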

Additional observations from a re-analysis of the deposited data

Results flagged for a closer look

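Among 52 groups of 4 arrays, 1 array stood far from the other 3 in 2 cases, where chance would flag about 1 group in 20. For Ptges by 1439747_at, C57BL/6 PBS replicate 2 read 9.9, against 9.58, 9.57 and 9.58 in the other 3 arrays. For Alox5ap, C57BL/6 steady state replicate 4 read 13.62, against 13.53, 13.52 and 13.53 in the other 3.

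The change in PBS culture differed between the strains, by the interaction test, for 4 probe sets. The difference, NOD minus C57BL/6, was 1.84 for Ptgs2 (1417262_at), 1.38 and 2.1 for Ptges (1449449_at and 1439747_at), and 0.67 for Ptgir.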

How the results depend on the processing

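No gene that was called changed direction under any alternative. Of 1291 values of single genes under alternatives, 1210 kept their side of the threshold, 46 lost the call and 35 gained it. Median centring changed no count by over 1.5 times. At an adjusted p under 0.05 the genes called numbered 0 at steady state, 1 for the NOD response to LPS and 0 for the interaction of strain and culture. With the replicate number as a block they were 6 at steady state, 3 between the strains with PBS and 3 for the interaction of strain and culture, where Ptges (0.62, adjusted p = 0.0395) and Ptgs2 (1.78, adjusted p = 0.00222) were added, and the fall of Ptgir in C57BL/6 culture was lost (-0.27, adjusted p = 0.236). The block also ended the call of Ptgir between the strains with LPS and changed no other call. Between the strains with PBS, 2 genes were called in the fit of 22 arrays, with the intensity trend and with the mean over probe sets. For the interaction of strain and culture 3 were called without the dimmer probe sets, in the fit of 22 arrays and with the mean over probe sets.

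With each array left out, 0 to 4 genes were called at steady state, 1 to 2 for the LPS response of either strain, 1 to 2 between the strains with PBS, 3 to 4 with LPS, 8 to 9 for culture in NOD, 9 in C57BL/6 each time, 0 to 2 for the interaction of strain and culture, and 0 for that of strain and LPS. Counts over all probe sets ranged across alternatives between 3503 and 9470 at steady state, 911 and 4282 for the NOD response to LPS, 84 and 2030 for that of C57BL/6, 4 and 28 for the interaction of strain and LPS, 2467 and 6826 between the strains with PBS, 2419 and 6083 with LPS, 13598 and 30518 for culture in NOD, 14394 and 33192 in C57BL/6, and 1909 and 4150 for its interaction. Values near the lower quartile of an array limit how far the size of a rise or a fall can be read.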
